A study of Homo sapiens with 3 samples.

Results

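The genes described here form the gp130 cytokine axis: cytokines of the IL6 family, the receptor chains that bind them, the transcription factor STAT3 and its inhibitor SOCS3. Members were chosen as a list of 10 gene symbols (IL6, IL11, LIF, CLCF1, IL6R, IL6ST, OSMR, LIFR, STAT3 and SOCS3), and every probe set that the platform annotation gives 1 of these symbols was taken. This gave 30 probe sets for 9 genes, of 54675 probe sets in all. CLCF1, a cytokine that signals through LIFR and IL6ST, had no probe set under its symbol in the annotation used and was not analysed here. The list was chosen by membership of the pathway, with the ratios of IL6 and IL11 to the control array already known, so the values below describe the members and test nothing.

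Total RNA came from 3 stably transfected cultures of HepG2, by its label a line of human liver cancer cells, kept in DMEM with fetal bovine serum. The first group carried an Hsp27 ORF vector (an open reading frame of the small heat shock protein Hsp27), the second an Hsp27 shRNA vector (a short hairpin RNA meant to lower it), and the third a control vector. Each group is 1 culture on 1 array, and the labels do not say whether a culture was 1 clone or a pool of clones. No difference below therefore has a replicate check, and cells that differ in number or in RNA per cell cannot be told apart.

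Cytokines of this family are secreted proteins that bring together a receptor complex around gp130, the shared signalling chain encoded by IL6ST. IL6 and IL11 use their own binding chains with gp130, whereas LIF and oncostatin M pair gp130 with LIFR or OSMR. The assembled receptor activates Janus kinases, which phosphorylate STAT3, and STAT3 then enters the nucleus and switches on genes that include SOCS3, a feedback inhibitor of the same receptor. In hepatocytes the pathway is known for driving the acute phase response.

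The promoters of IL6 and IL11 are shown because these cytokines differed most from the control array among the members. The sequences are RefSeq's, from build GRCh38.p14. Each runs 5′ to 3′ over the 250 bases before the annotated start, at chr7:22726950-22727199 on the + strand for IL6 and at chr19:55370464-55370713 on the - strand for IL11. Capitals mark matches to motifs searched on both strands, namely GGNNTTTCC for NF-kB, TGANTCA for AP-1, TTGCNNAA for C/EBP and TTCNNNGAA for STAT factors.
IL6: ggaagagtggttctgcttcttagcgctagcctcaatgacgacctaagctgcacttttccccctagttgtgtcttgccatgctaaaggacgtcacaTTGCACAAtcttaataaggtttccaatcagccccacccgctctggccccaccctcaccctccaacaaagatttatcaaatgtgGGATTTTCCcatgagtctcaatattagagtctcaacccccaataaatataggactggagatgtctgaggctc
IL11: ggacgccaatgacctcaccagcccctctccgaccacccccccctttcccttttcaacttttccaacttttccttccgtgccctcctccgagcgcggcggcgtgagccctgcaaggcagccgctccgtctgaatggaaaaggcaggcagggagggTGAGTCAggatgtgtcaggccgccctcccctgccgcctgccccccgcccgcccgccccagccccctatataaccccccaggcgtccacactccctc

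The IL6 window held 1 NF-kB match, GGATTTTCC, from 72 to 64 bases before the start, and 1 C/EBP match, TTGCACAA, from 155 to 148 bases before it. The IL11 window held 1 AP-1 match, TGAGTCA, from 96 to 90 bases before the start. Neither window held the STAT letters, and the matches did not overlap. Of 35116 promoter windows of the same length, 5.48% held the NF-kB letters, 6.57% the AP-1 letters, 9.05% the C/EBP letters and 6.57% the STAT letters. The motifs were chosen with the sequences in view, and a match is a run of letters, not a measured binding site. Promoter entries were found for 8 of the 10 members. In the others the letters occurred in OSMR (1 C/EBP match, TTGCAAAA) and at the alternative starts of LIFR (STAT matches TTCCTTGAA and TTCATCGAA, and a C/EBP match TTGCAAAA).

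Values are log2 signals, and a log2 ratio is the difference between 2 arrays after any signal below 5.93 was raised to that floor, which is the median signal pooled over all probe sets and arrays. A gene is represented by its probe set of highest mean signal, and 12664 genes exceeded the floor on 1 array or more. The noise SD beside a ratio is the typical disagreement between probe sets of the same gene at that signal. It covers probe and hybridisation differences, leaves out variation between cultures, and is too small close to the floor. HSPB1, which encodes Hsp27, read 13.11 with the ORF label, 13.03 with the shRNA label and 13.25 with the control label. The ORF array was thus not above the control in the transcript part read, so directions rest on the labels alone. Of 9 hepatocyte markers measured, 2 (AFP and TF) were above the floor on any array by their representing probe set, as was 1 dimmer probe set of APOA1, and albumin read at most 4.88. Of 6 leukocyte markers, 2 (CD3E and ITGAM) were above the floor, and PTPRC, which defines leukocytes, read at most 4.18. Summed linear signals of the leukocyte list were 208.3 for ORF, 168.7 for shRNA and 171.4 for control. CD3E read 6.72 for ORF and below the floor on the other arrays, so its ratio of 0.79 for ORF against control is set by the floor. Summed signals of 9 fibroblast and stellate markers, of which COL1A1, COL1A2, COL3A1, DCN, LUM, PDGFRB and ACTA2 were above the floor, were 10486, 13004 and 12570. LUM, at 13.03, 13.35 and 13.30, was the brightest of them. For shRNA against control COL1A1 was higher, at 0.80 (noise SD 0.193), and DCN lower, at -0.90 (noise SD 0.227). COL1A1 was also lower for ORF against shRNA, at -0.65 (noise SD 0.164). These COL1A1 ratios are those of its brightest probe set. Of its 5 probe sets above the floor, 3 shared the sign for shRNA against control and 2 that for ORF against shRNA. Summed signals of 5 endothelial markers, of which PECAM1 and CDH5 were above the floor, were 183.7, 259.6 and 230.0. CDH5 read 5.79 for ORF, below the floor, and its ratios of -0.79 to control and -0.70 to shRNA are set by the floor. With most hepatocyte markers below the floor and LUM bright, the markers do not bear out the HepG2 label. The liver identity of the cultures rests on that label alone. The part of these cell types in the results was not tested.

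IL6 and IL11 were the members past a 1.5-fold difference, and both were higher on the arrays labelled ORF and shRNA than on the array labelled control. For ORF against control, 2 of 9 genes were at least 1.5-fold higher and 0 were lower, where 3.04% of all genes tested were higher and 2.82% lower. For shRNA against control the counts were again 2 and 0, where 3.59% of all genes were higher and 3.30% lower. For ORF against shRNA 0 members were past 1.5-fold in either direction, where 2.64% of genes were higher and 2.68% lower. The median ratio of the 9 genes was 0.33 for ORF against control, where that of all genes was 0. It was 0.14 for shRNA against control (all genes -0.006) and 0.10 for ORF against shRNA (all genes 0.005). At 2-fold the members past the threshold were IL6 and IL11 for ORF against control (0.655% of all genes higher, 0.497% lower) and IL6 for shRNA against control (0.671% higher, 0.482% lower). None was past it for ORF against shRNA (0.292% higher, 0.458% lower). Both comparisons with control use the same single control array, so the shared direction of IL6 and IL11 is not independent between them.

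**Figure D1:**
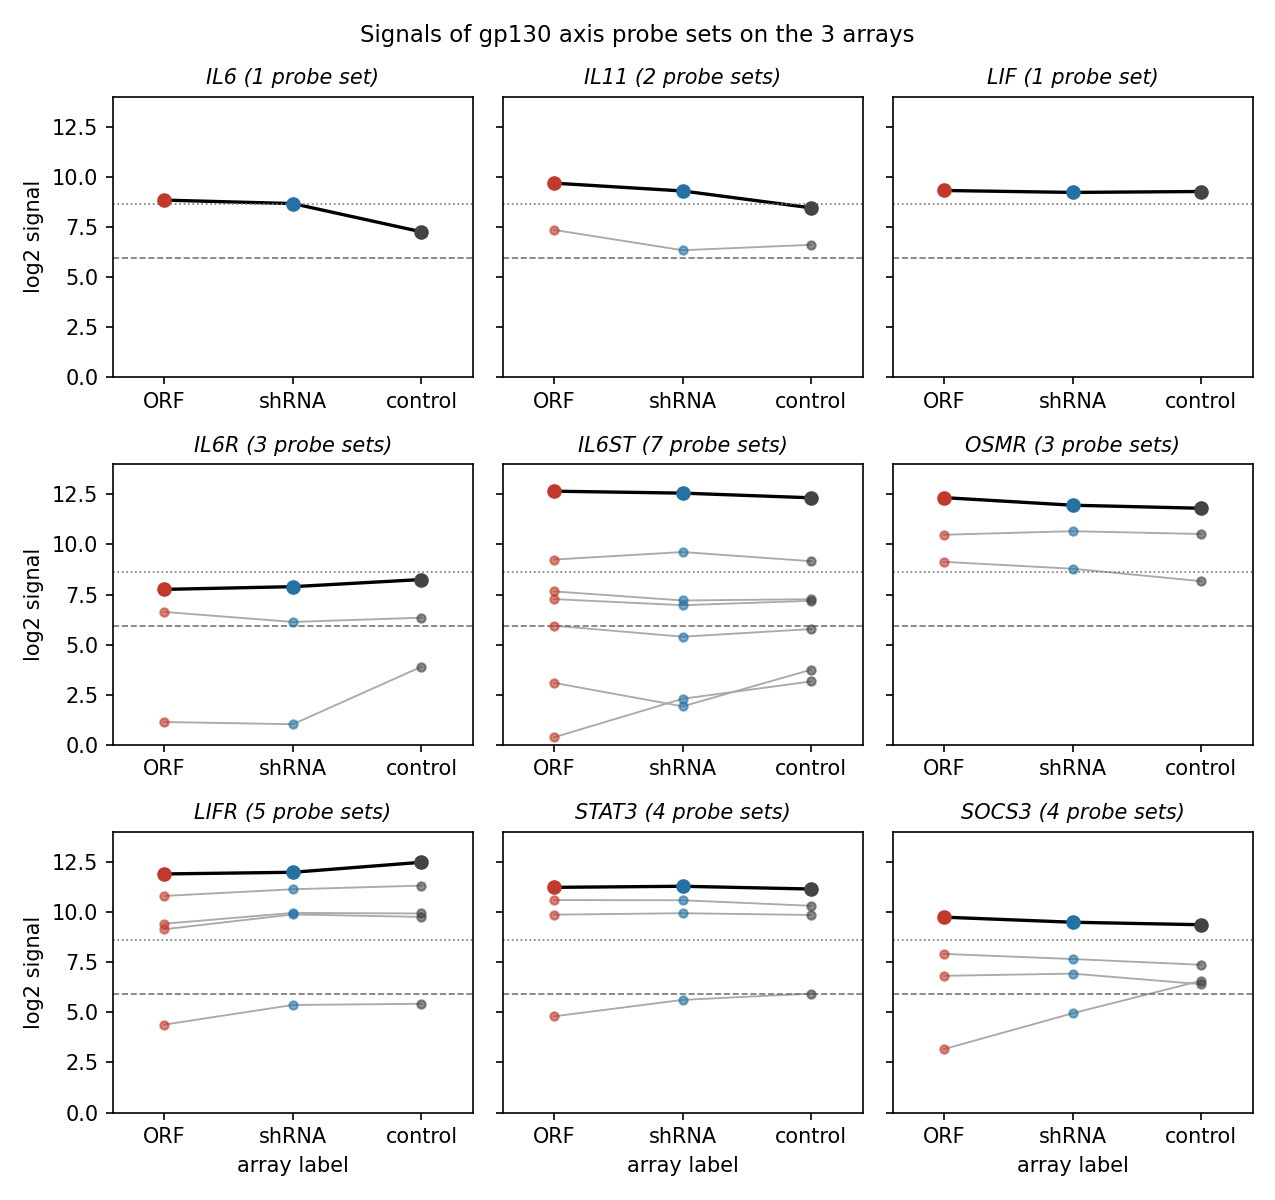
Log2 signal (vertical axis) of each of the 30 member probe sets on the arrays labelled ORF, shRNA and control (horizontal axis), with 1 panel per gene. Large points with black lines are the probe set that represents the gene, small points with grey lines the others; the dashed line is the floor of 5.93 and the dotted line the pooled 75th percentile of 8.63. The representing probe sets of IL6 and IL11 are lowest on control, while that of LIFR is highest there.

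Among the cytokines, IL6, the founding member and an inducer of the acute phase response, differed most. Its only probe set read 8.83 with the ORF vector, 8.66 with the shRNA vector and 7.25 with the control vector. As linear signals these are 455.5, 404.1 and 152.1. The control array was alone in lying below the pooled 75th percentile of 8.63. The log2 ratio to control was 1.58 for ORF (noise SD 0.259) and 1.41 for shRNA (noise SD 0.279). Of the 12664 genes tested, 13 had a higher ratio than IL6 for ORF and 16 for shRNA. ORF and shRNA themselves differed by 0.17 (noise SD 0.244), less than the noise SD. With a single probe set, no second reading of IL6 was available.

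IL11, a cytokine of stromal and epithelial cells that signals through IL11RA and gp130, was read by 2 probe sets. The brighter one gave 9.68 for ORF, 9.29 for shRNA and 8.45 for control, in the same order of arrays as IL6. Its ratio to control was 1.23 for ORF (noise SD 0.197) and 0.84 for shRNA (noise SD 0.254). The dimmer probe set read 7.34 for ORF, 6.33 for shRNA and 6.60 for control, so that shRNA was lowest there. Its ratios to control were 0.74 for ORF (noise SD 0.430) and -0.27 for shRNA (noise SD 0.421). The higher IL11 reading with ORF was thus seen by both probe sets, whereas that with shRNA rested on 1 of 2. The mean over both probe sets was 0.99 for ORF and 0.29 for shRNA, which is below 1.5-fold.

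LIF, which signals through LIFR and gp130, was nearly level. Its probe set read 9.31 for ORF, 9.22 for shRNA and 9.26 for control. The largest of its 3 ratios was 0.10, for ORF against shRNA (noise SD 0.208), and all 3 were smaller than their noise SD. Of the 3 cytokines measured, 2 were thus past 1.5-fold against control and LIF was not.

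IL6R is the binding chain for IL6 itself. Its brightest probe set gave 7.76 for ORF, 7.89 for shRNA and 8.25 for control, a ratio to control of -0.49 for ORF (noise SD 0.277) and -0.36 for shRNA (noise SD 0.316). A dimmer probe set read 6.63, 6.13 and 6.34, with a ratio of 0.29 for ORF and -0.21 for shRNA. The third was below the floor on all 3 arrays. The probe sets of IL6R therefore differed in sign for ORF and shared it for shRNA.

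IL6ST encodes gp130, the chain that IL6, IL11 and LIF all signal through. Of its 7 probe sets, 5 exceeded the floor on some array. The brightest read 12.65 for ORF, 12.56 for shRNA and 12.32 for control, with ratios to control of 0.33 for ORF (noise SD 0.095) and 0.23 for shRNA (noise SD 0.133). All 5 were on the higher side with ORF, from 0.015 to 0.39, with a mean of 0.18 ± 0.17 (SD over 5 probe sets, which are not replicates). Those at 0.08 (noise SD 0.185), 0.08 (noise SD 0.382) and 0.015 (noise SD 0.266) were smaller than their noise SD. The ratio of 0.015 is set by the floor, and that of 0.39 had a noise SD of 0.351. With shRNA 2 were higher, 2 lower and 1 was at the floor on both arrays, from -0.22 to 0.46. No probe set of IL6ST reached 1.5-fold in any comparison.

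The signalling chains OSMR and LIFR, which each pair with gp130 to form the oncostatin M and LIF receptors, went opposite ways relative to control on the array labelled ORF. Their genes are neighbours on chromosome 5, with 0 protein-coding genes starting between them in RefSeq's table. The brightest OSMR probe set read 12.33 for ORF, 11.96 for shRNA and 11.80 for control. Its ratio to control was 0.53 for ORF (noise SD 0.102), just short of 1.5-fold, and 0.15 for shRNA (noise SD 0.138). The dimmest of the 3, at 9.13, 8.79 and 8.17, gave 0.96 for ORF (noise SD 0.234) and 0.62 for shRNA (noise SD 0.278), both past 1.5-fold. The probe set of intermediate signal read 10.48, 10.66 and 10.52 and differed little, with ratios of -0.04 and 0.14. OSMR was thus higher with ORF by 2 of 3 probe sets, and the probe sets spread more widely (SD 0.50) than their mean of 0.49.

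LIFR was lower on the array labelled ORF than on control by every probe set above the floor. The 4 probe sets read 11.90, 10.81, 9.42 and 9.15 for ORF, and 12.49, 11.32, 9.93 and 9.76 for control. Their ratios were -0.58, -0.52, -0.51 and -0.61, with a mean of -0.56 ± 0.05 (SD over 4 probe sets). A log2 ratio of 0.585 is 1.5-fold, so the brightest lay just short of it and the dimmest just past it. Among 1316 genes with at least 4 probe sets above the floor, LIFR was 1 of 2 in which all of them were at or below -0.5 for ORF against control. The other was CADM4, and 100 of these genes had all probe sets below 0. The median SD between probe sets of such a gene was 0.204. At or above 0.5 there were likewise 2 genes, and 130 had all probe sets above 0. LIFR was singled out after its values were seen, and the limit of -0.5 lies just inside its weakest ratio of -0.51. The count of genes past that limit is therefore no measure of how rare the LIFR readings are.

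On the array labelled shRNA the LIFR probe sets did not agree. They read 11.99, 11.14, 9.96 and 9.88, which gave ratios to control of -0.50 (noise SD 0.137), -0.18, 0.03 and 0.12. The brightest probe set placed shRNA with ORF, and the 2 dimmest placed it with control. Set against shRNA directly, ORF was lower by all 4, from -0.08 to -0.74, with a mean of -0.42 ± 0.28. The fifth LIFR probe set was below the floor on every array.

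**Figure D2:**
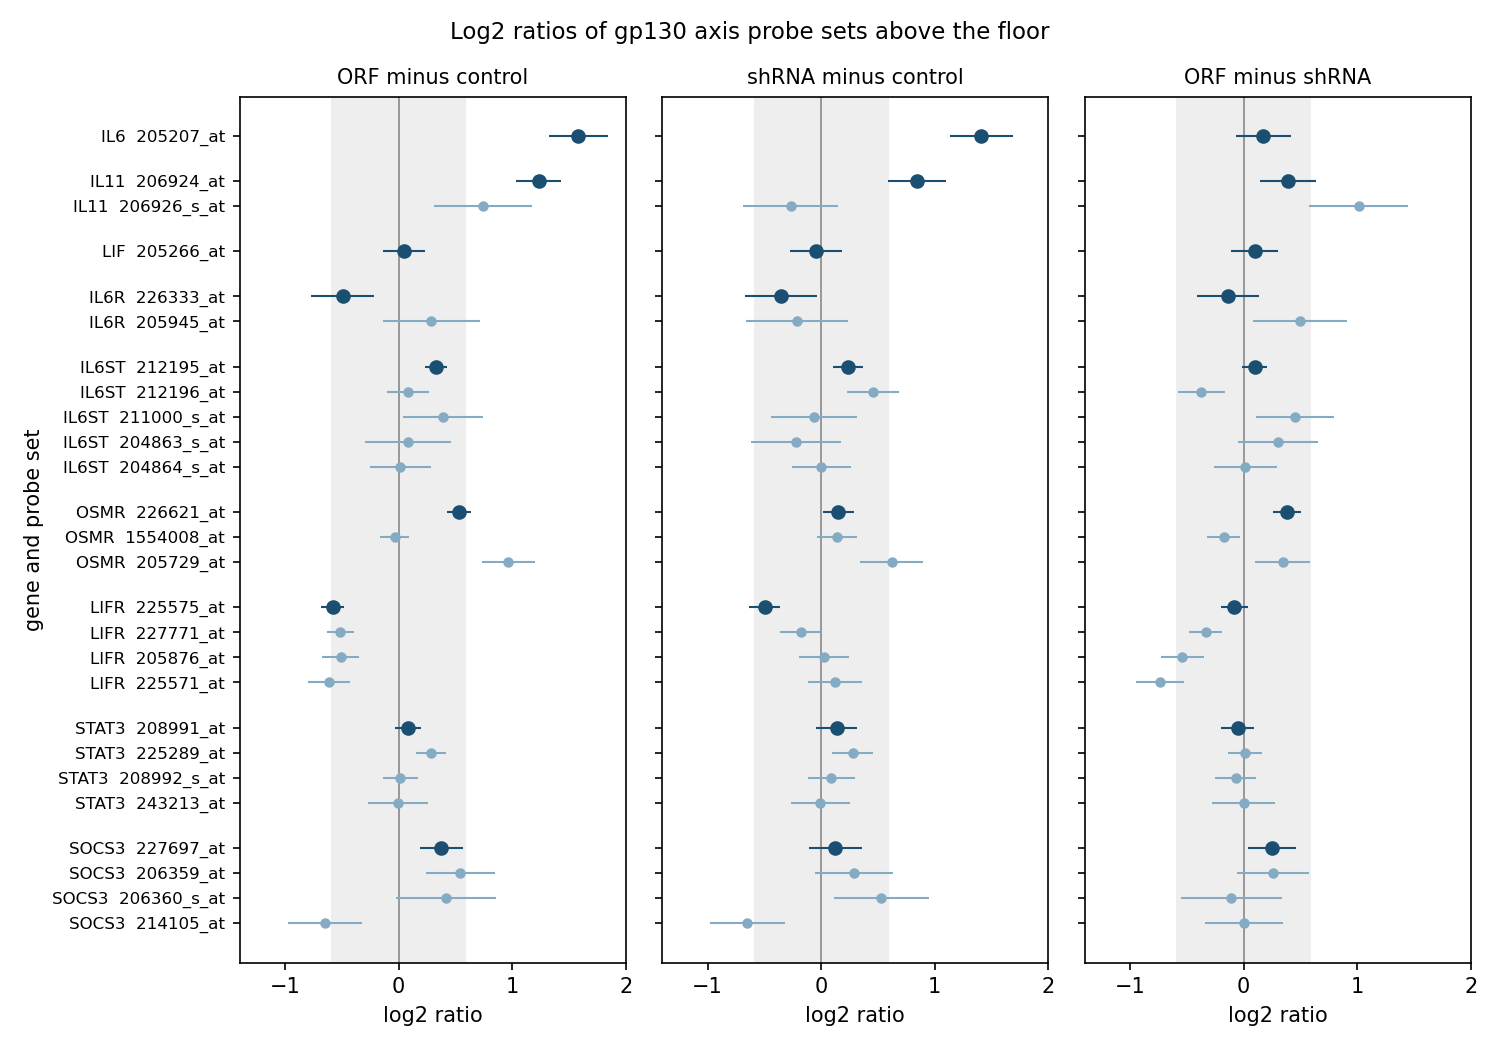
Log2 ratio (horizontal axis) of each of the 26 member probe sets above the floor on at least 1 array, for ORF minus control, shRNA minus control and ORF minus shRNA; bars are the noise SD from pairs of probe sets, not replicate error. Dark points represent the gene and the grey band lies within 1.5-fold. The 4 LIFR probe sets lie between -0.61 and -0.51 for ORF minus control and spread from -0.50 to 0.12 for shRNA minus control.

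STAT3, the transcription factor at the end of the pathway, differed little in transcript level. Its brightest probe set read 11.24 for ORF, 11.29 for shRNA and 11.15 for control, with ratios to control of 0.08 (noise SD 0.115) and 0.14 (noise SD 0.179). Another probe set read 10.60, 10.59 and 10.32 and gave 0.29 and 0.28. The others gave at most 0.09 against control, and the dimmest was above the floor on the control array alone. STAT3 is activated by phosphorylation, which an expression array does not measure.

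SOCS3, the feedback inhibitor induced by STAT3, was somewhat higher with ORF by its 3 brighter probe sets. The brightest read 9.75 for ORF, 9.50 for shRNA and 9.37 for control. Its ratio to control was 0.38 for ORF (noise SD 0.186) and 0.12 for shRNA (noise SD 0.235). The next gave 0.54 for ORF (noise SD 0.304) and 0.29 for shRNA (noise SD 0.344). The third gave 0.42 (noise SD 0.440) and 0.53 (noise SD 0.419), and all were short of 1.5-fold. For ORF the ratio of the third was smaller than its noise SD, as were the shRNA ratios of the first and second. The fourth went the other way: it read 3.17 for ORF, 4.95 for shRNA and 6.58 for control. Its ratio of -0.65 to both is set by the floor. Over the 4 probe sets the mean was 0.17 ± 0.55 for ORF and 0.07 ± 0.51 for shRNA.

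Counted by probe set, 26 of the 30 exceeded the floor on some array. For ORF against control, 4 were at least 1.5-fold higher (IL6, both of IL11 and 1 of OSMR) and 2 lower (1 of LIFR and 1 of SOCS3), where 3.63% of all probe sets tested were higher and 3.05% lower. For shRNA against control 3 were higher (IL6, 1 of IL11 and 1 of OSMR) and 1, of SOCS3, was lower, where 4.41% were higher and 3.56% lower. For ORF against shRNA 1 of IL11 was higher, at 1.01 (noise SD 0.434), and 1 of LIFR lower, at -0.74 (noise SD 0.211). Over all probe sets 3.12% were higher and 3.15% lower in that comparison.

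Beyond the members, 10 lists covered the rest of the pathway, with 63 distinct genes above the floor of 91 listed. For ORF against control 2 of the 63 (3.17%) were at least 1.5-fold higher and 1 (1.59%) lower, and for ORF against shRNA 0 were higher and 2 (3.17%) lower. For shRNA against control 4 (6.35%) were higher and 2 (3.17%) lower. Except for the 4 higher genes, these shares lie near or below the background of all genes given above. With so few genes none of them is read as a result about the pathway. The median ratio of the 63 genes to control was 0.03 for ORF and 0.05 for shRNA, and their median for ORF against shRNA was -0.005.

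Of the other ligands listed, 1 of 5 with a probe set was above the floor: EBI3, a subunit of IL27, at 9.06 for ORF, 9.31 for shRNA and 9.02 for control. All 4 other receptors of the family were above it. IL11RA, the binding chain for IL11, read 6.81, 6.98 and 6.27, with ratios to control of 0.54 for ORF and 0.71 for shRNA (noise SD 0.449 and 0.418). Its 2 probe sets above the floor shared a sign for ORF and not for shRNA. IL31RA, which pairs with OSMR and not with gp130 to bind IL31, read 6.87, 7.94 and 7.29, and its ratio to control was -0.42 for ORF and 0.65 for shRNA (noise SD 0.352 and 0.378). Its ratio for ORF against shRNA was -1.07 (noise SD 0.340), the largest ratio of the 63 genes in any of the 3 comparisons. Of the 3 probe sets of IL31RA 1 was above the floor, so no second reading was available. CNTFR and IL27RA stayed within 1.5-fold, as did ADAM10 and ADAM17, the proteases that shed IL6R from the cell surface.

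The 4 Janus kinases all lay below 0 for ORF against control, and 0 of them passed 1.5-fold. Their median was -0.23, where that of all genes was 0, and the shared sign was not tested. JAK1, the main kinase of gp130, read 12.80, 12.99 and 12.94. JAK2 read 6.81, 6.52 and 7.26, and its ratio to control was -0.45 for ORF (noise SD 0.402) and -0.74 for shRNA (noise SD 0.425). TYK2 gave -0.11 (noise SD 0.199) and -0.51 (noise SD 0.258), and JAK3 -0.32 (noise SD 0.396) and 0.04 (noise SD 0.426). For ORF the ratios of TYK2 and JAK3 were thus smaller than their noise SD. Of the probe sets above the floor, 2 of 3 for JAK1 and 1 of 2 for JAK3 shared the sign for ORF. Of the other STATs measured, STAT5A, STAT5B and STAT6 stayed within 1.5-fold, and STAT4 read 5.80, 6.67 and 6.76. Its ORF signal was below the floor, which sets its ratios of -0.83 for ORF against control and -0.74 for ORF against shRNA. IL31RA and STAT4 were the 2 genes lower for ORF against shRNA.

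Of 14 negative regulators (SOCS proteins, CISH, PIAS proteins and phosphatases) 0 were past 1.5-fold in any comparison. The largest of their ratios to control were 0.50 for SOCS1 and -0.41 for CISH, both for ORF. The 6 SHP2 and ERK adaptors, the second output of gp130, and the 8 measured regulators of IL6 mRNA decay also had 0 members past 1.5-fold. In the first of these lists GAB2 gave -0.52 for ORF. In the second ZFP36L1, which binds AU-rich elements and promotes mRNA decay, read 11.01, 10.93 and 10.54, with ratios to control of 0.47 (noise SD 0.129) and 0.39 (noise SD 0.174). Of its 2 probe sets above the floor, 2 shared the sign for ORF and 1 that for shRNA.

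Among STAT3 target genes 15 of 17 listed were above the floor. For ORF against control 12 lay above 0 and 3 below, with 0 past 1.5-fold. Their median was 0.16, where that of all genes was 0. The counts by sign in this list were not tested. ICAM1, an adhesion molecule, read 9.13 for shRNA and 8.43 for control, with ORF between them, and its ratio to control was 0.56 for ORF (noise SD 0.222) and 0.70 for shRNA (noise SD 0.285). LRG1, a secreted glycoprotein, gave 0.55 and 0.49. For shRNA against control ICAM1 and JUNB (0.60, noise SD 0.277) were past 1.5-fold, 11 genes lay above 0 and 4 below, and the median was 0.07. CCND1, which encodes cyclin D1, gave 0.39 for ORF and -0.18 for shRNA. ICAM1 is also a known target of NF-kB, and the regulator behind any reading on this list was not tested.

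Most genes of the acute phase list were too dim to measure: of 18 with a probe set, 5 were above the floor on any array. The complement component C3 read 12.69 for ORF, 12.43 for shRNA and 11.96 for control. Its ratio to control was 0.72 for ORF (noise SD 0.0976) and 0.46 for shRNA (noise SD 0.135). Complement factor B (CFB) read 8.27, 7.97 and 7.56, with ratios of 0.70 (noise SD 0.278) and 0.41 (noise SD 0.316). Both were thus highest with ORF and lowest on control, and for ORF both were past 1.5-fold. Whether the readings of C3 and CFB have to do with IL6 was not tested. The iron hormone HAMP gave -0.58 for ORF, and hemopexin (HPX) gave -0.71 for shRNA, each within 1 log2 unit of the floor on every array. HAMP for ORF and HPX for shRNA were themselves below the floor, which sets these ratios.

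**Figure D3:**
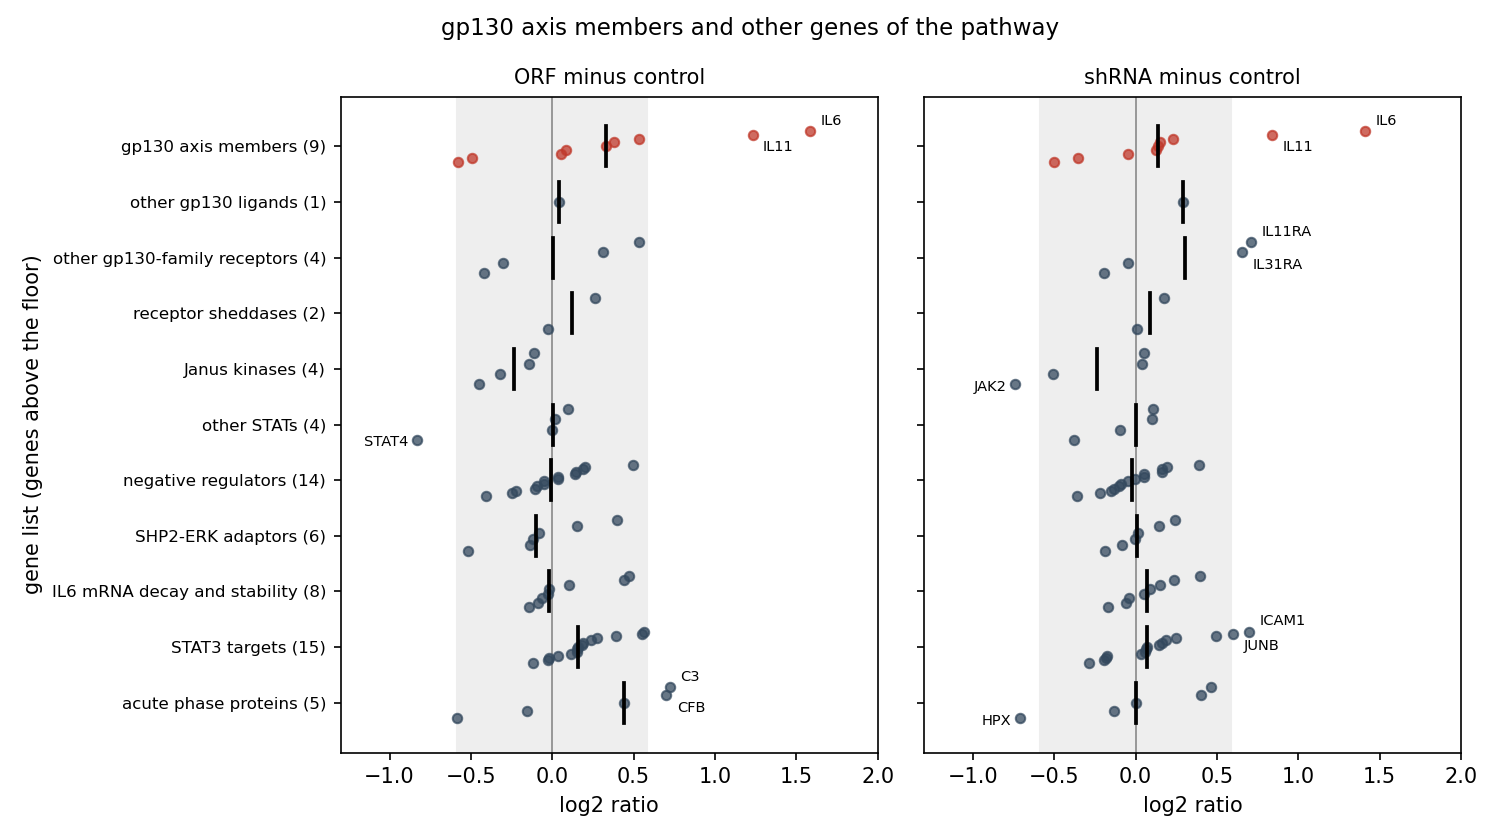
Log2 ratio (horizontal axis) of each gene above the floor, for ORF minus control and shRNA minus control, by gene list (vertical axis, with the number of genes). Points are genes, spread vertically for legibility, black bars are list medians, the grey band lies within 1.5-fold and genes outside it are named. IL6 and IL11 lie furthest to the right in both panels.

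The genes whose pair of ratios to control lay nearest to that of IL6, by Euclidean distance over 3 arrays and among 8181 genes that reached the pooled 75th percentile on at least 1 array, were STEAP1 (1.81 for ORF and 1.73 for shRNA), PI3 (1.86 and 1.11), PTGS2 (1.89 and 0.90), MMP2 (2.01 and 1.87) and SH3KBP1 (0.97 and 1.28). Their distances ran from 0.397 to 0.629. Nearest to IL11 were CYP26B1 (1.08 and 0.84), IGFBP1 (1.11 and 0.69), RAB31 (1.19 and 0.62), TMEM154 (1.25 and 0.59) and CYP1B1 (1.05 and 0.65), at distances from 0.156 to 0.268. With 3 arrays, such a likeness is a description of single readings.

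**Figure D4:**
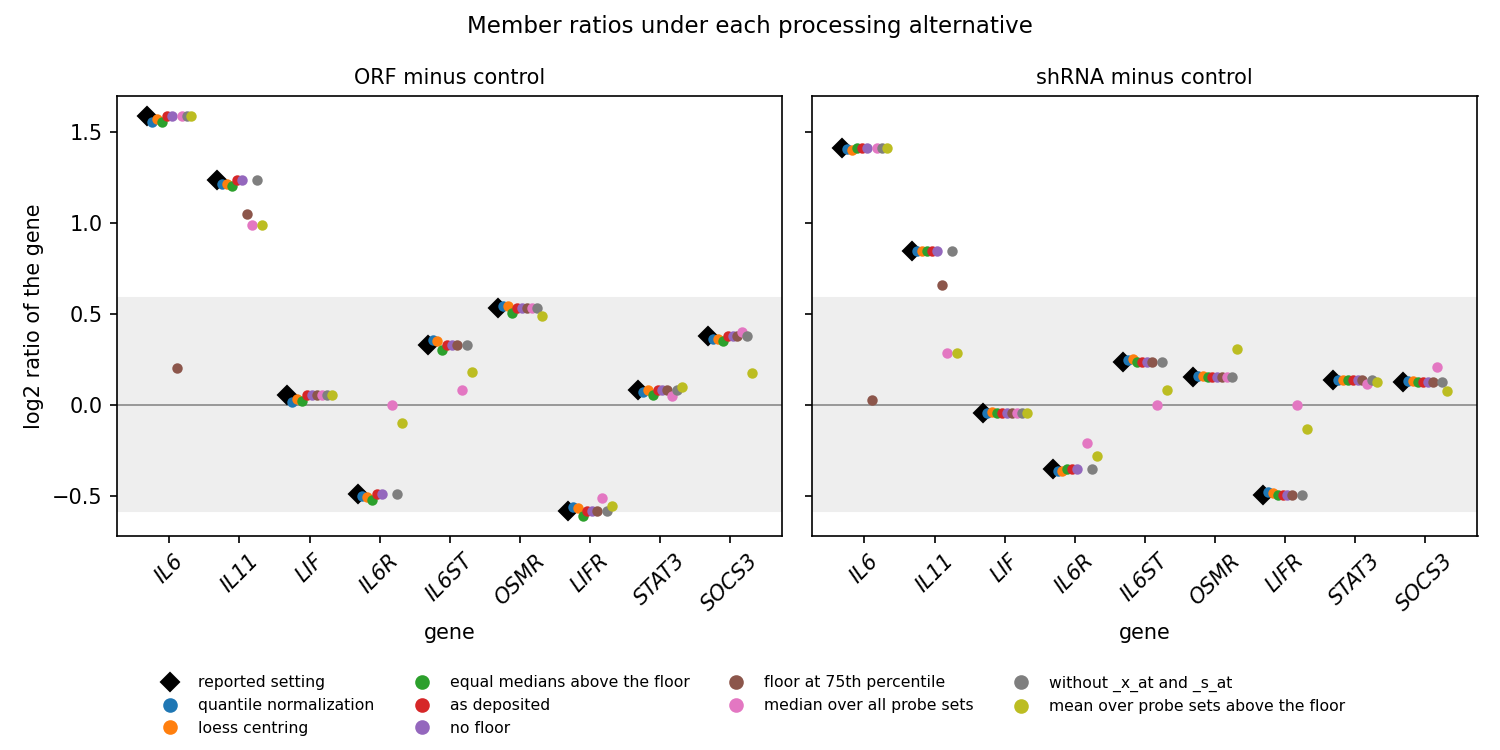
Log2 ratio of each member gene (vertical axis) under the reported setting (black diamonds) and each processing alternative (coloured points), for ORF minus control and shRNA minus control; the grey band lies within 1.5-fold. IL6 falls inside the band with the floor at the 75th percentile, which lies above its control signal, and IL11 falls inside it for shRNA when its probe sets are averaged.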

How the data were processed

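RNA from 3 cultures was measured on 1 short-oligonucleotide array each, and groups follow the transfection label. Log2 signals per probe set were deposited by the authors; MAS5 is named in the submitters' processing notes, while no version, target signal or present and absent calls are given in the sources used here. The log2 scale was read from the values: on a linear scale, the trimmed mean (2% cut at each end) was 500.1 for all arrays.

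Arrays were scaled to that trimmed mean and signals below the pooled median (5.93) were raised to it before log2 ratios were taken. Probe sets were named through the platform annotation: 41097 had 1 symbol, 1801 had several and 11777 had none. Of the first, 41043 matched RefSeq's table for GRCh38.p14. Several or no symbols kept a probe set out. The noise SD came from 6023 probe set pairs, each of a single gene and within 1 log2 unit of mean signal, as the root mean square difference of their ratios divided by the square root of 2, in 20 bins. The ratio and noise procedures were tested on simulated data.

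With 1 array per group there is no test, and precision is limited by the number of arrays. Members and lists were chosen with earlier results of these data known. Named were all members, up to 4 genes per pathway list with the largest ratio in any comparison, the 5 genes nearest to IL6 and to IL11, the cell type markers whose representing probe set was above the floor with ALB and PTPRC, and HSPB1. CADM4, C4BPA and APOA1 were named after their values were seen. Alternatives were quantile normalization, loess centring, equal medians, unscaled values, other floors, other ways to combine probe sets, and a 2-fold threshold. Python 3.11.15, pandas 2.3.3 and statsmodels 0.14.6 were used.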

Additional observations from a re-analysis of the deposited data

Results flagged for a closer look

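The probe set of IL6-AS1, an antisense RNA at the IL6 locus that the comparisons of the members do not use, read above control on the array labelled shRNA. It read 6.01 for ORF, 6.59 for shRNA and 5.87 for control, where the control signal lies below the floor of 5.93, which sets the ratios: a log2 ratio to control of 0.66 for shRNA (noise SD 0.357) and 0.09 for ORF (noise SD 0.350). Probe sets of LIF-AS2 and IL6R-AS1 were below the floor on all 3 arrays, and that of IL6ST-DT gave 0.38 for ORF (noise SD 0.289) and 0.11 for shRNA. The control signal of IL6ST-DT, 5.61, was also below the floor, which sets these ratios. No replicate array bears on these values.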

How the results depend on the processing

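No paired analysis was possible because each group holds 1 array, and no array could be left out. Of 240 ratios of member genes recomputed under the alternatives, 218 moved by no more than their noise SD and 22 by more, and 0 past 1.5-fold changed sign. Part of the 218 could not move, so this count does not measure robustness. Unscaled values, no floor, and leaving out probe sets named _x_at or _s_at left the representing probe sets and their ratios essentially unchanged. Combining probe sets cannot change IL6 or LIF, which have 1 each. The largest shift of the median of all genes was -0.025, with equal medians. With the floor at the 75th percentile, above the IL6 signal on control, IL6 gave 0.20 for ORF and 0.03 for shRNA, and 1 member (IL11) in place of 2 was higher in each comparison with control. With the median over all probe sets, or the mean over those above the floor (an alternative chosen after seeing the data), 1 member (IL6) was higher for shRNA against control, since IL11 gave 0.29. Under the same settings 1 (IL11, 0.70) in place of 0 was higher for ORF against shRNA. At 2-fold, 1 (IL6) in place of 2 was higher for shRNA. With equal medians 1 (LIFR, -0.61) in place of 0 was lower for ORF against control. The sign of IL6R for ORF against shRNA turned from -0.14 to 0.18 with the mean over probe sets.

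For the other pathway genes past 1.5-fold, the floor at the 75th percentile left 1 higher and 0 lower for ORF against control, 0 higher and 0 lower for shRNA, and 0 lower for ORF against shRNA. For ORF against control 2 in place of 1 (HAMP besides STAT4) were lower under quantile normalization, loess centring, equal medians and no floor. Without a floor 2 (C4BPA and HPX) in place of 0 were higher for ORF against shRNA. Signals close to the floor, such as those of IL11RA, JAK2 and STAT4, limit what can be read.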
